A study of Mus musculus with 9 samples.

Results

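Chemokine receptor genes, 9 in number, were followed across dendritic cells sorted from mouse spleen: Xcr1, Ccr7, Ccr6, Ccr3, Ccr2, Cx3cr1, Ccr9, Cxcr3 and Cxcr4. They were chosen by symbol, with earlier results of these data known, and all 9 were among the 14862 genes of the expression table. RNA had been sequenced from C57Bl/6 mice aged 8 to 12 weeks, with 3 libraries from each of 3 subsets and no treatment or allele named in the labels. The conventional subsets were cDC1, known for cross-presentation to CD8 T cells, and cDC2, known for presentation to CD4 T cells, and the remaining subset carried the label mcDC, an abbreviation that the labels do not spell out. The sort markers are not stated in the labels, nor whether replicates were separate mice or pools, so each p-value reflects only variation among these libraries, part of which may be technical.

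Chemokine receptors are proteins with a bundle of membrane-spanning helices that couple to inhibitory G proteins and turn a gradient of secreted chemokine into directed migration. On dendritic cells they set position: some keep the cells in the splenic red pulp, marginal zone or bridging channels, and others draw them to T cells or, after maturation, into the T cell zone. Arrestins and receptor kinases shut the receptors off, and RGS proteins speed up the return of the G protein to rest.

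Levels are given as RPKM, which scales reads by gene length and library total, so that levels of different genes can be set side by side. Library totals, recovered from the steps between the values, ranged from 9.19 to 12.43 M reads over cDC1 and cDC2 and from 5.14 to 8.22 M over mcDC. With limma at an adjusted p under 0.05, 9 of 10 cDC1 marker genes were higher in cDC1 than in cDC2. Of 10 cDC2 marker genes 9 were lower. Over all genes tested, 8.85% were higher and 10.7% lower in cDC1. The markers not called, Batf3 (171 against 118 RPKM) and Irf4 (12.1 against 27.1), had means in the same directions. The library mcDC replicate 3 was the shallowest, with 12.35% of genes at 0 against 2.71% to 6.47% in the other 8. A mean of RPKM in sorted bulk cells cannot tell fewer cells that express a gene from less RNA in each cell.

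Receptors differed between cDC1 and cDC2 at 8 of 9 members, 4 higher in cDC1 (Xcr1, Ccr7, Ccr9 and Cxcr3) and 4 lower (Cx3cr1, Cxcr4, Ccr2 and Ccr6). Over all 11971 genes tested, 19.6% were called between these subsets, 8.85% higher and 10.7% lower in cDC1, at an adjusted p under 0.05 with limma on log2(RPKM + 1). The mcDC libraries differed from cDC1 at 7 members, 5 higher in mcDC (Ccr6, Ccr3, Ccr2, Cx3cr1 and Cxcr4) and 2 lower (Xcr1 and Ccr9), where 15.4% of all genes were called, 9.53% higher and 5.88% lower. They differed from cDC2 at 4 members, 3 higher in mcDC (Xcr1, Ccr3 and Cxcr3) and 1 lower (Cx3cr1), where 3.66% of all genes were called, 2.06% higher and 1.6% lower. These shares of all genes are also the background to the counts of every list below. Libraries of the compared subsets did not overlap at 8 members between cDC1 and cDC2, at 8 between mcDC and cDC1, and at 6 between mcDC and cDC2, against 46.1%, 30.5% and 21.6% of all genes tested.

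The 3 comparisons share their libraries, so their counts are not independent of each other. All 9 members passed the filter of 1 RPKM in at least 2 libraries, and Ccr6, under 1 RPKM in every cDC1 library, passed through cDC2 and mcDC alone. Between mcDC and cDC1 the members called were 4 without cDC1 replicate 2 and 4 without cDC1 replicate 3, while all genes called fell from 1845 to 951 and 1133. All genes called between mcDC and cDC2 were 438, with 279, 158 and 188 without cDC2 replicates 1, 2 and 3 and 896 without mcDC replicate 1, and those between cDC1 and cDC2 were 2344, with 1547 without cDC1 replicate 2.

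**Figure D1:**
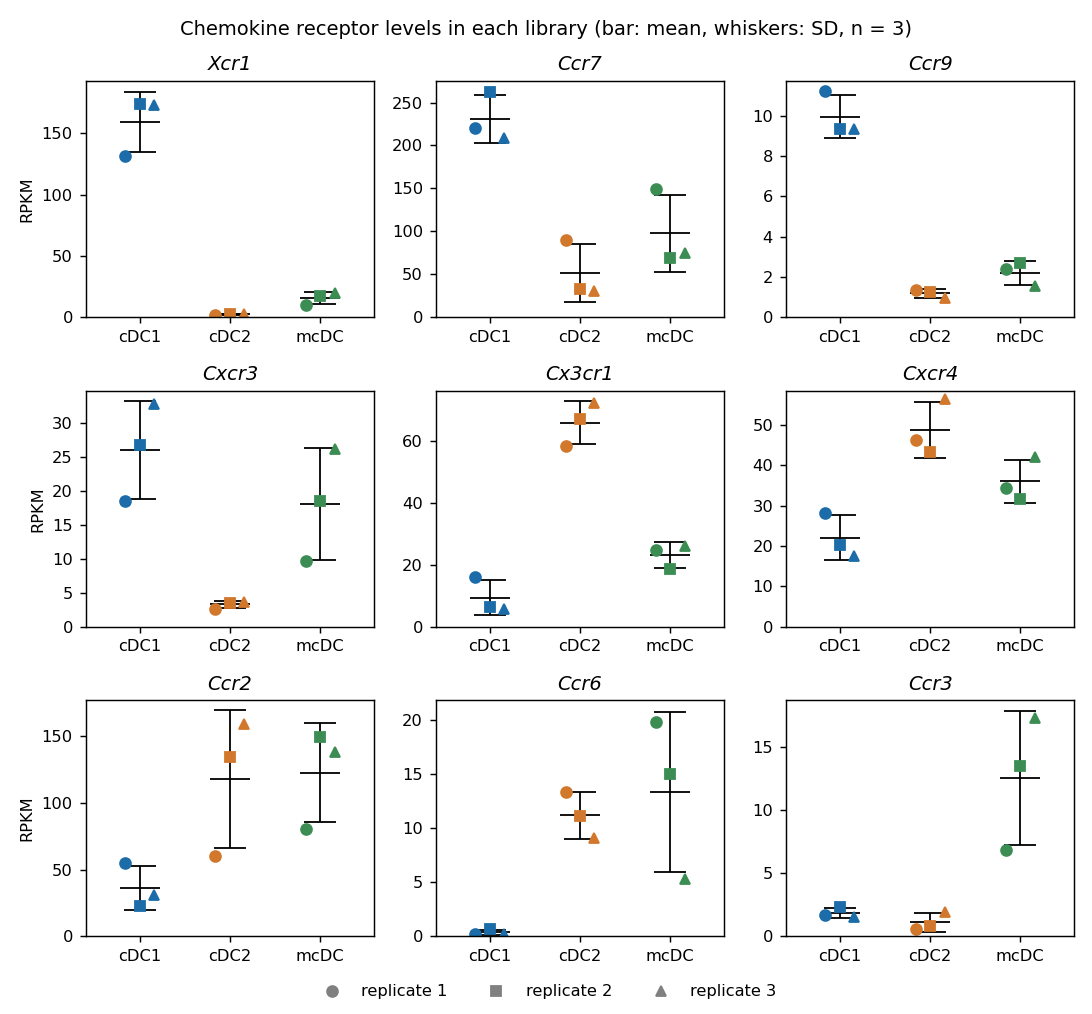
RPKM of the 9 receptors on a linear axis from 0, with points for libraries (circle, square and triangle for replicates 1, 2 and 3), a bar for the mean and whiskers for the SD of 3 libraries. Xcr1 reached 131 to 174 RPKM in cDC1, and Ccr3 was at 6.86 to 17.3 RPKM in mcDC and at no more than 2.30 in the other subsets.

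To show the sequence next to the starts of receptors with contrasting levels, the 250 bases before the start were taken from RefSeq (GRCm38.p6) for 1 receptor for each subset, whose libraries there lay above all others: Xcr1 for cDC1, Cx3cr1 for cDC2 and Ccr3 for mcDC. All 3 genes are on chromosome 9. The stretches are chr9:123862030-123862279 on the minus strand for Xcr1, chr9:120068297-120068546 on the minus strand for Cx3cr1 and chr9:124021721-124021970 on the plus strand for Ccr3. They read 5′ to 3′ along the gene, with capitals for matches on either strand to AP-1 (TGANTCA), the ISRE bound by interferon regulatory factors, a core of PU.1 sites (GAGGAA), RUNX (TGTGGT) or a TATA box (TATAAA).
Xcr1: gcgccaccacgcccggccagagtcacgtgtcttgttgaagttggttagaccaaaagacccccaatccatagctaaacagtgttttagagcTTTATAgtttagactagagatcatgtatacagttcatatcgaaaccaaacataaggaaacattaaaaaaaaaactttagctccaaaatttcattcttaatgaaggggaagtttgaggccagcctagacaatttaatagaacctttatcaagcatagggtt
Cx3cr1: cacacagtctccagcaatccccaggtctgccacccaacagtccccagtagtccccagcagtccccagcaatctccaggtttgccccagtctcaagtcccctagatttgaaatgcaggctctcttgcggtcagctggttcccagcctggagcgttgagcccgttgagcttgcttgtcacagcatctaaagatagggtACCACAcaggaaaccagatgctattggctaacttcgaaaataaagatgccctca
Ccr3: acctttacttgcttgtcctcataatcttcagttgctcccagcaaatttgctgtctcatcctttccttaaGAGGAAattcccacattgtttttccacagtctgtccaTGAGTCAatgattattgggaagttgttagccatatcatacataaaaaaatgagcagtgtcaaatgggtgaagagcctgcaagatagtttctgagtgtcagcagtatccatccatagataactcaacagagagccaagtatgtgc
Ccr3 held 1 match to AP-1, 144 bases before the start, and 1 to the PU.1 core, 181 bases before it. Cx3cr1 held 1 match to RUNX 54 bases before the start, and Xcr1 held a TATA box letter match 160 bases before it. Among 32851 mouse stretches of the same length, 6.75% held AP-1, 2.98% the ISRE, 23.3% the PU.1 core, 14.0% RUNX and 12.4% the TATA letters. RefSeq stretches were found for 8 of the 9 members, and these matches are letters in a window and say nothing of binding.

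The receptors that were higher in cDC1 than in cDC2 were led by Xcr1 (Entrez gene 23832), the receptor for XCL1 made by NK cells and CD8 T cells, by which cDC1 are known. Its RPKM was 131, 174 and 173 in cDC1 replicates 1, 2 and 3, 1.95, 2.81 and 2.58 in cDC2, and 10.3, 17.3 and 19.4 in mcDC. The 3 subsets did not overlap, and the mcDC libraries lay between the others. The cDC1 mean was 65.2-fold that of cDC2 (log2 fold change 5.54 ± 0.23 SE, limma adjusted p = 9.4e-07) and 10.2-fold that of mcDC (mcDC against cDC1 -3.30 ± 0.23, 3.4e-05). In mcDC the mean was 6.40-fold that of cDC2 (2.24 ± 0.23, 0.0018). Even in cDC2 the level rested on 80 to 144 reads a library.

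Other cDC1 genes stood in mcDC at different shares of their cDC1 level. Xcr1 in mcDC was at 9.83% of its cDC1 mean, while Cd8a (the CD8 alpha chain) was at 1.75%, Cd207 (langerin) at 1.72%, Clec9a (a receptor for dead cells) at 18.7%, Cadm1 (an adhesion molecule) at 11.5% and Irf8 (a cDC1 transcription factor) at 50.6%. Of the others listed, Itgae was at 6.15%, Tlr3 at 28.0%, Naaa at 34.7% and Wdfy4 at 56.3%. Batf3, another cDC1 transcription factor, was not lower in mcDC, at 108% of its cDC1 mean (limma adjusted p = 0.86). In cDC2 Xcr1 was at 1.53% of its cDC1 mean and Clec9a at 6.31%. The summed RPKM of the 10 cDC1 markers was 2562 to 3203 in cDC1, 439 to 508 in cDC2 and 778 to 1438 in mcDC. Among the mcDC libraries it was lowest in replicate 1 and highest in replicate 3, as Xcr1 was. The part of other cDC1 genes in the Xcr1 level of mcDC was not tested.

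Ccr9 (12769), the receptor for CCL25 of thymus and small intestine and a gene also used by plasmacytoid dendritic cells, had a low level with the same order of subsets. It was at 11.2, 9.33 and 9.37 RPKM in cDC1 replicates 1, 2 and 3, at 1.36, 1.24 and 0.951 in cDC2, and at 2.38, 2.70 and 1.55 in mcDC. Again no subset overlapped with another. The cDC1 mean was 8.41-fold that of cDC2 (log2 fold change 2.33 ± 0.19, limma adjusted p = 3.9e-05) and 4.52-fold that of mcDC (mcDC against cDC1 -1.79 ± 0.19, 0.00035). Between mcDC and cDC2 it did not pass (0.54 ± 0.19, 0.19), but did without mcDC replicate 3 (0.048).

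Plasmacytoid dendritic cell genes did not share this order as a list. Together 8 such genes in the table summed to 120 to 223 in cDC1, 102 to 166 in cDC2 and 173 to 288 RPKM in mcDC. Of its more restricted members, Siglech, a lectin, was at 4.35 to 16.8 RPKM in cDC1, 0.613 to 0.777 in cDC2 and 2.89 to 4.85 in mcDC, and Pacsin1, a membrane-bending protein, was at 2.65 to 3.01, 0.324 to 0.405 and 0.577 to 0.763. Cox6a2, a subunit of cytochrome oxidase, was highest in mcDC, at 2.998 to 5.16 RPKM, against 0.413 to 2.504 in cDC1 and 0.330 to 1.05 in cDC2, and Ly6d, a surface antigen, was at 2.28 to 18.5 in mcDC, 1.84 to 4.78 in cDC1 and 0.315 to 2.09 in cDC2. Of the 8 genes, 2 were higher in cDC1 than in cDC2 (Siglech and Pacsin1), 2 were higher in mcDC than in cDC1 (Cox6a2 and Spib) and 1 was lower (Pacsin1), and Cox6a2 was higher in mcDC than in cDC2. Their part in the Ccr9 level was not tested.

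Cxcr3 (12766), the receptor for the interferon-induced chemokines CXCL9 and CXCL10, set cDC2 apart from both other subsets. It was at 18.6, 26.8 and 32.9 RPKM in cDC1 replicates 1, 2 and 3, at 2.70, 3.56 and 3.70 in cDC2, and at 9.73, 18.5 and 26.2 in mcDC. All cDC2 libraries lay below all others, while cDC1 and mcDC overlapped. The cDC1 mean was 7.86-fold that of cDC2 (log2 fold change 2.62 ± 0.32, limma adjusted p = 0.00039) and the mcDC mean 5.47-fold (2.06 ± 0.32, 0.0088), and between mcDC and cDC1 it did not pass (-0.56 ± 0.32, 0.29). T cells and NK cells carry this receptor too. Together 10 T cell genes summed to 29.5 to 55.6 RPKM in cDC1, 19.995 to 30.9 in cDC2 and 38.2 to 56.8 in mcDC. The sum of NK cell genes was highest in mcDC. The part of T cell and NK cell genes in the result was not tested.

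Ccr7 (12775), the receptor for CCL19 and CCL21 that takes maturing dendritic cells into the T cell zone, had the highest mean of the 9 receptors in cDC1. It was at 221, 263 and 209 RPKM in cDC1 replicates 1, 2 and 3, at 90.1, 33.03 and 30.8 in cDC2, and at 149, 68.8 and 75.3 in mcDC. Every cDC1 library lay above every other, and replicate 1 was the highest of both cDC2 and mcDC, so that those subsets overlapped. The cDC1 mean was 4.50-fold that of cDC2 (log2 fold change 2.32 ± 0.41, limma adjusted p = 0.0030). Between mcDC and cDC1 (-1.31 ± 0.41) it did not pass, at an adjusted p = 0.058, with 0.014 to 0.18 over 18 alternatives and a pass under 6 of them. These were median-of-ratios scaling (0.041), these groups fitted alone (0.030), voom (0.049), a replicate block by the runs of consecutive library titles (0.014), and the fits without cDC2 replicate 1 (0.014) or mcDC replicate 1 (0.022). Between mcDC and cDC2 it did not pass either (1.007 ± 0.41, 0.25), but did without cDC2 replicate 1 (0.043).

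As a sum, genes of dendritic cell maturation moved with Ccr7 across the libraries, though not every gene of the list did. Over 15 such genes RPKM summed to 1164, 1323 and 1125 in cDC1 replicates 1, 2 and 3, 625, 461 and 420 in cDC2, and 825, 613 and 614 in mcDC, with replicate 1 again the highest of cDC2 and of mcDC. Of the 15, 9 were higher in cDC1 than in cDC2 with limma, and in mcDC 1 was higher and 7 were lower than in cDC1. The higher one was Relb, at 82.7 ± 16.7, 107 ± 20.6 and 141 ± 25.9 RPKM in cDC1, cDC2 and mcDC (adjusted p = 0.028). Cd80, Birc3, Ccl17 and Il4i1 were called in no comparison. Their part in the Ccr7 level was not tested.

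Among the receptors lower in cDC1, Cx3cr1 (13051), the receptor for fractalkine that patrolling monocytes and part of the cDC2 carry, was highest in cDC2. It was at 15.97, 6.57 and 5.88 RPKM in cDC1 replicates 1, 2 and 3, at 58.5, 67.1 and 72.3 in cDC2, and at 24.9, 18.6 and 26.3 in mcDC. The subsets did not overlap, with mcDC between the others. The cDC2 mean was 6.96-fold that of cDC1 (cDC1 against cDC2 -2.80 ± 0.31, limma adjusted p = 0.00019) and 2.84-fold that of mcDC (mcDC against cDC2 -1.47 ± 0.31, 0.031). In mcDC it was 2.46-fold that of cDC1 (1.32 ± 0.31, 0.018). The difference between mcDC and cDC2 lost its call without cDC2 replicate 1 (0.072), 2 (0.13) or 3 (0.13) or mcDC replicate 2 (0.10), and that between mcDC and cDC1 without cDC1 replicate 2 (0.081) or 3 (0.071) and with these groups fitted alone (0.056). In cDC1 the 10 cDC2 markers summed to 203, 56.5 and 63.6 RPKM in replicates 1, 2 and 3, highest in the replicate where Cx3cr1 was highest, against 1002 to 1091 in cDC2 and 400.0 to 686 in mcDC, and their part in these levels was not tested.

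Cxcr4 (12767), the receptor for CXCL12 that holds leukocytes in marrow and red pulp, showed the smallest spread between subsets. It was at 28.2, 20.3 and 17.6 RPKM in cDC1 replicates 1, 2 and 3, at 46.2, 43.2 and 56.4 in cDC2, and at 34.4, 31.6 and 41.96 in mcDC. The subsets did not overlap. The cDC2 mean was 2.21-fold that of cDC1 (cDC1 against cDC2 -1.12 ± 0.19, limma adjusted p = 0.0023), and between mcDC and cDC2 it did not pass (-0.42 ± 0.19, 0.30). The mcDC mean was 1.63-fold that of cDC1 (0.70 ± 0.19, 0.033), a call that ended under 7 of 18 alternatives: median-of-ratios scaling (0.075), these groups fitted alone (0.079), and without cDC1 replicate 2 (0.12) or 3 (0.13), cDC2 replicate 1 (0.053) or 2 (0.053), or mcDC replicate 3 (0.059).

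Ccr2 (12772), the receptor for CCL2 that brings monocytes out of the marrow, had the highest mean of the 9 receptors in both cDC2 and mcDC. It was at 55.2, 23.1 and 30.8 RPKM in cDC1 replicates 1, 2 and 3, at 60.1, 134 and 159 in cDC2, and at 80.7, 150 and 138 in mcDC. Replicate 1 was the highest library of cDC1 and the lowest of each other subset, and cDC1 overlapped with neither. In replicate 1 of cDC2 and of mcDC, Ccr7 was above Ccr2, at 90.1 and 149 RPKM. The cDC2 mean was 3.25-fold that of cDC1 (cDC1 against cDC2 -1.65 ± 0.42, limma adjusted p = 0.020) and the mcDC mean 3.38-fold (1.77 ± 0.42, 0.019), and between mcDC and cDC2 it did not pass (0.12 ± 0.42, 0.91). The first call was lost without cDC1 replicate 2 (0.088) or 3 (0.074) or cDC2 replicate 2 (0.081) or 3 (0.081), and the second without cDC1 replicate 2 (0.083) or 3 (0.071) or mcDC replicate 2 (0.064).

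Monocyte genes differed between the subsets in another proportion. RPKM of 9 monocyte genes summed to 196, 131 and 189 in cDC1 replicates 1, 2 and 3, 970, 1570 and 1954 in cDC2, and 377, 405 and 459 in mcDC. It was lowest in replicate 1 of cDC2 and of mcDC and highest in replicate 1 of cDC1, as Ccr2 was. Their part in the Ccr2 level was not tested. How reads shared between similar receptor genes were counted is not stated in the labels, so the Ccr2 level is uncertain to that extent.

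Ccr6 (12458), the receptor for CCL20 found on B cells and on cDC2 of mucosal tissue, was below 1 RPKM throughout cDC1. It was at 0.251, 0.668 and 0.238 RPKM in cDC1 replicates 1, 2 and 3, from 6, 16 and 5 reads, at 13.4, 11.1 and 9.07 in cDC2, and at 19.8, 15.0 and 5.28 in mcDC. All cDC1 libraries lay below all others, and cDC2 fell within the range of mcDC, the most variable subset for this gene with an SD of 7.42 RPKM. The mcDC mean was 34.7-fold that of cDC1 (log2 fold change 3.22 ± 0.39, limma adjusted p = 0.00061) and the cDC2 mean 28.99-fold (cDC1 against cDC2 -3.14 ± 0.39, 0.00041). Between mcDC and cDC2 it did not pass (0.09 ± 0.39, 0.93). With a pseudocount of 0.1 these log2 fold changes were 4.71 and -4.63, and with voom on the recovered reads they were 5.09 and -4.89.

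B cell genes were also lowest in cDC1 as a sum, at 30.7 to 40.0 RPKM over 9 genes, against 85.7 to 100.5 in cDC2 and 58.4 to 103 in mcDC. Cd22, a sialic acid binding inhibitory lectin, made most of this sum in cDC2 and mcDC, at 58.0 to 68.6 and 34.2 to 49.7 RPKM, against 5.16 to 5.87 in cDC1. The B cell transcription factor Pax5 was at 0.225 to 1.05 RPKM in cDC1, 0.270 to 0.665 in cDC2 and 0 to 0.297 in mcDC. Ms4a1, the CD20 protein of B cells, was at 12.7 to 15.0 RPKM in cDC1, 1.80 to 5.23 in cDC2 and 1.42 to 8.44 in mcDC. Of the 7 B cell genes tested, 3 were lower in cDC1 than in cDC2 with limma (Cd22, Cd79b and Blk) and 1 was higher (Ms4a1), and the same 3 were higher in mcDC than in cDC1. Blk, a kinase of the B cell receptor, was at 0.770 to 1.14 RPKM in cDC1, 3.21 to 6.89 in cDC2 and 3.53 to 9.61 in mcDC, and Cd79b, a chain of that receptor, at 5.75 to 12.1, 16.3 to 18.8 and 12.6 to 25.6. The part of B cell genes in the Ccr6 level was not tested.

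Ccr3 (12771), the receptor for eotaxin known from eosinophils and basophils, was the only member higher in mcDC than in each conventional subset. It was at 6.86, 13.5 and 17.3 RPKM in mcDC replicates 1, 2 and 3, at 1.69, 2.30 and 1.58 in cDC1, and at 0.565, 0.795 and 1.96 in cDC2. Every mcDC library lay above every other, and cDC1 and cDC2 overlapped. The mcDC mean was 6.76-fold that of cDC1 (log2 fold change 2.17 ± 0.34, limma adjusted p = 0.0025) and 11.3-fold that of cDC2 (2.66 ± 0.34, 0.0046), from 185 to 291 reads a library in mcDC and 17 to 83 elsewhere. Both calls held under all 18 alternatives. Between cDC1 and cDC2 it did not pass (0.49 ± 0.34, 0.40).

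Markers of the cells best known for Ccr3 did not share one order. Ear2, an eosinophil ribonuclease, was at 29.4 to 35.8 RPKM in cDC2, 2.02 to 3.29 in cDC1 and 3.53 to 8.78 in mcDC. Siglecf, an eosinophil lectin, was at 1.09 to 2.06 RPKM in mcDC, 1.11 to 1.70 in cDC2 and 0 to 0.0780 in cDC1. Prg2, the major basic protein, was at 4.78 to 10.9 in mcDC, 0.650 to 4.68 in cDC1 and 0.518 to 1.05 in cDC2. Of these, Prg2 was higher in mcDC than in cDC2 (log2 fold change 2.21 ± 0.45, limma adjusted p = 0.029) and Ear2 lower (-2.39 ± 0.27, 0.0032). Between mcDC and cDC1 limma called 1 of 4 eosinophil genes tested, Siglecf, higher in mcDC (1.21 ± 0.22, 0.0054). As a sum, 5 eosinophil genes in the table were at 33.2 to 39.5 RPKM in cDC2, above the 11.7 to 18.003 of mcDC and the 3.70 to 8.53 of cDC1. Of 7 basophil and mast cell genes, 6 were under 1 RPKM in all mcDC libraries, and the seventh, the receptor kinase Kit, was at 45.3 to 110 RPKM in mcDC, 50.7 to 76.4 in cDC1 and 48.5 to 91.2 in cDC2. Their part in the Ccr3 level was not tested.

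Many, though not all, NK cell and macrophage genes were higher in mcDC, as Ccr3 was. Of 7 NK cell genes, 4 were higher in mcDC than in cDC1 and 4 higher than in cDC2, and their summed RPKM was 225, 280 and 331 in mcDC replicates 1, 2 and 3, with 182 to 215 in cDC2 and 68.2 to 140 in cDC1. Klrd1 made most of this sum in cDC2, at 150 to 174 RPKM, with 159 to 175 in mcDC and 31.9 to 104 in cDC1. It was not called between mcDC and cDC2 (limma adjusted p = 0.97). Ncr1, the NK cell receptor NKp46, was at 21.4 to 32.2 RPKM in mcDC, 4.10 to 5.64 in cDC1 and 2.67 to 4.78 in cDC2. Of 10 macrophage genes, 8 were higher in mcDC than in cDC1 and 7 higher than in cDC2, with summed RPKM of 383 to 762 in mcDC, 109 to 149 in cDC1 and 183 to 214 in cDC2. Adgre1 of this list was highest in cDC2, at 87.6 to 95.7 RPKM, with 45.1 to 64.4 in mcDC and 1.76 to 6.97 in cDC1. It was not called between mcDC and cDC2 (0.23). The part of NK cell and macrophage genes, too, was not tested.

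**Figure D2:**
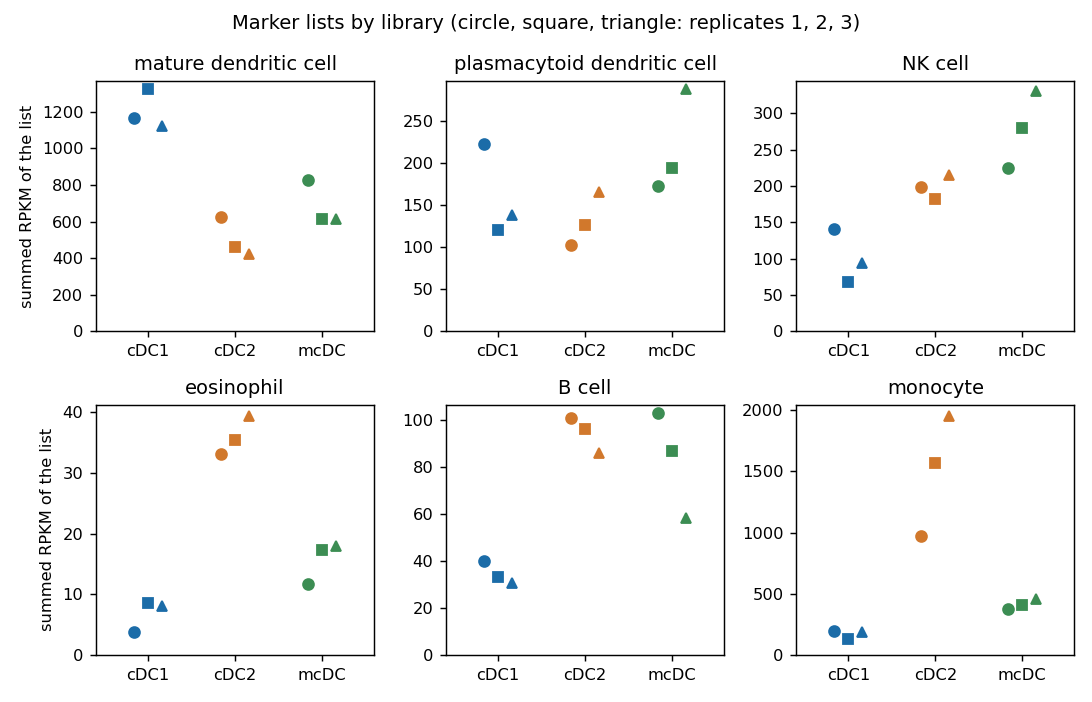
Summed RPKM of 6 marker lists in each library (circle, square and triangle for replicates 1, 2 and 3; linear axes from 0). Maturation genes were highest in cDC1, eosinophil and monocyte genes in cDC2, and NK cell genes in mcDC, at 225 to 331 RPKM.

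**Figure D3:**
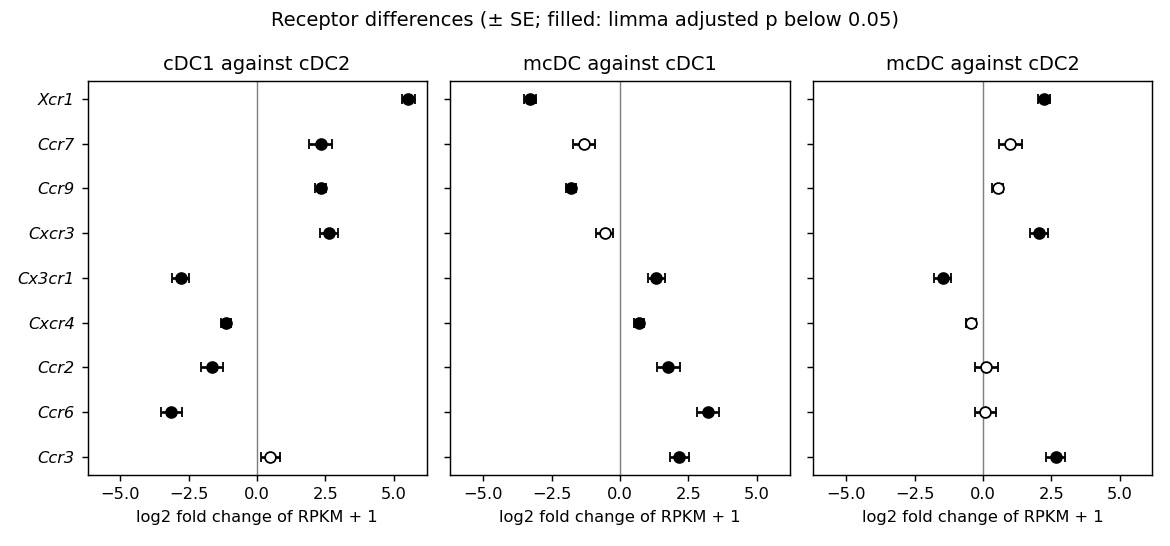
Log2 fold change of RPKM + 1 for each receptor in the 3 comparisons, with SE from limma over 9 libraries; filled points had an adjusted p under 0.05. Between cDC1 and cDC2, 8 of 9 receptors were called, against 4 of 9 between mcDC and cDC2.

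Each subset had its own order of receptor levels. In cDC1 Ccr7 (231 ± 28.3 RPKM, mean ± SD, n = 3) and Xcr1 (159 ± 24.2) stood apart from each other and from the rest. Ccr2 (36.3 ± 16.7), Cxcr3 (26.1 ± 7.19) and Cxcr4 (22.03 ± 5.54) followed and overlapped with their neighbours in this order. Ccr9 (9.98 ± 1.08) and Cx3cr1 (9.47 ± 5.63) overlapped, and Ccr3 (1.86 ± 0.389) and Ccr6 (0.386 ± 0.245) came last, each apart from the receptor before it.

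In cDC2 the first 4 receptors, Ccr2 (118 ± 51.6 RPKM), Cx3cr1 (66.0 ± 6.96), Ccr7 (51.3 ± 33.6) and Cxcr4 (48.6 ± 6.93), did not differ from their neighbours beyond the spread of the libraries. Ccr6 (11.2 ± 2.15) lay apart below them. Cxcr3 (3.32 ± 0.538) and Xcr1 (2.45 ± 0.442) overlapped, as did Ccr9 (1.19 ± 0.211) and Ccr3 (1.11 ± 0.750) at the end. In mcDC Ccr2 (123 ± 37.01) and Ccr7 (97.7 ± 44.7) overlapped, then came Cxcr4 (35.98 ± 5.37), apart from both. Cx3cr1 (23.3 ± 4.12), Cxcr3 (18.2 ± 8.24), Xcr1 (15.7 ± 4.73), Ccr6 (13.4 ± 7.42) and Ccr3 (12.5 ± 5.27) formed a run in which every neighbour overlapped, and Ccr9 (2.21 ± 0.594) lay below.

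The summed RPKM of the 9 receptors was 496 ± 25.3 in cDC1, 303 ± 31.5 in cDC2 and 342 ± 8.31 in mcDC. In cDC1 Ccr7 held 46.4 ± 3.30% of this sum and Xcr1 32.1 ± 4.50%. In cDC2 Ccr2 held 38.1 ± 14.1%, Cx3cr1 21.8 ± 0.709%, Ccr7 17.7 ± 13.1% and Cxcr4 16.03 ± 1.29%. In mcDC Ccr2 held 35.9 ± 10.8% and Ccr7 28.7 ± 13.4%, while Ccr3, at 0.372% and 0.352% in cDC1 and cDC2, held 3.65 ± 1.48%. The share of Ccr7 in mcDC replicate 1, 44.1%, was within the range of cDC1, 43.5% to 49.99%.

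**Figure D4:**
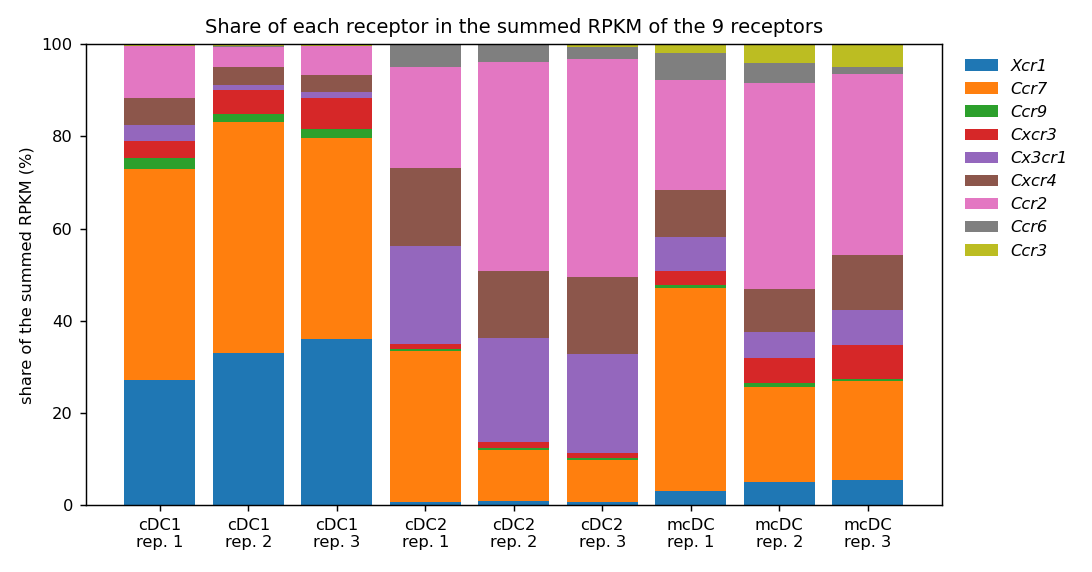
Stacked share of each receptor in the summed RPKM of the 9 receptors, in percent, for each library. Xcr1 and Ccr7 fill most of the cDC1 bars, and Ccr2 and Cx3cr1 are prominent in cDC2. Ccr7 is the widest band of cDC2 replicate 1, at 32.8%, and of mcDC replicate 1, at 44.1%.

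On chromosome 9, 4 members lie close together. In the RefSeq gene table (GRCm38.p6, used here for order alone) the coding genes run Lztfl1, Ccr9, Fyco1, Cxcr6, Xcr1, Ccr1, Ccr1l1, Ccr3 and Ccr2 in this stretch. Neighbours in this stretch had unlike patterns: Ccr9 and Xcr1 were highest in cDC1, Ccr3 in mcDC, and Ccr2 was lowest in cDC1. Of the genes between them, Ccr1l1, a relative of Ccr1, was at means of 0.0235, 0.113 and 0.375 RPKM in cDC1, cDC2 and mcDC. Fyco1, an adaptor of vesicle transport, was at 19.0, 16.2 and 15.7 RPKM in cDC1, cDC2 and mcDC (means, n = 3), Cxcr6, the receptor for CXCL16, at 2.14, 1.64 and 1.55, and Ccr1, a receptor for CCL3 and CCL5, at 3.79, 4.87 and 4.17. Ccr6 is on chromosome 17, Ccr7 on 11, Cxcr3 on X and Cxcr4 on 1, and Cx3cr1 lies elsewhere on chromosome 9.

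**Figure D5:**
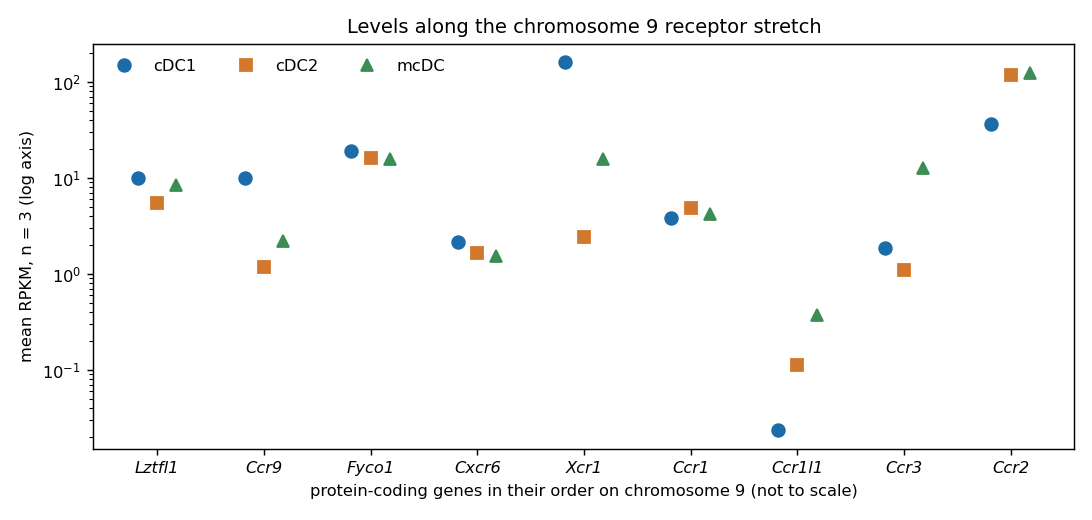
Mean RPKM of 3 libraries on a log axis for coding genes in their order on chromosome 9 (distances not to scale; circles cDC1, squares cDC2, triangles mcDC). Xcr1 ranges from 2.45 to 159 RPKM between subsets, while its neighbours Cxcr6 and Ccr1 stay within 1.55 to 4.87.

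Other chemokine receptors were few and mostly low. Of 17 listed, 13 were in the table and 8 passed the filter on low values. With limma, 2 were higher in mcDC than in cDC1 and 3 lower in cDC1 than in cDC2, against 9.53% and 10.7% of all genes. Between mcDC and cDC2 limma called 0, against 3.66%, with 2 at an unadjusted p under 0.05 and 0 called by voom. Their median log2 fold changes were 0.23 between mcDC and cDC1, -0.06 between mcDC and cDC2 and -0.65 between cDC1 and cDC2, against 0.09, 0.06 and -0.02 over all genes tested. Ccrl2, which binds chemerin without signalling, was at 4.66 ± 1.09 RPKM in cDC1, 29.04 ± 7.75 in cDC2 and 28.97 ± 7.52 in mcDC (cDC1 against cDC2 -2.40, adjusted p = 0.00011; mcDC against cDC1 2.39, 0.00021). Ackr1, an atypical receptor known from red cells and venules, was at 4.15 ± 2.76, 18.1 ± 6.60 and 27.4 ± 10.8 RPKM (-1.96, 0.0095, and 2.53, 0.0037). Cmklr1, the signalling receptor for chemerin, was at 0.593 ± 0.354, 2.03 ± 0.575 and 0.842 ± 0.140 RPKM and was lower in cDC1 than in cDC2 (-0.94, 0.023). Cxcr2, a neutrophil receptor at 3.17 ± 0.755, 6.75 ± 1.49 and 2.92 ± 1.96 RPKM, did not pass (-0.89, 0.11 between cDC1 and cDC2).

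Some subsets also carried ligands of these receptors. Of 20 ligand genes listed, 10 were in the table and 8 were tested. In cDC1 3 were higher than in cDC2, against 8.85% of all genes tested. In mcDC 1 was higher and 3 were lower than in cDC1, against 9.53% and 5.88%. Between mcDC and cDC2 1 was higher in mcDC, against 2.06%. Median log2 fold changes in this order of comparisons were 0.95, -0.83 and 0.41, against -0.02, 0.09 and 0.06 over all genes. Cxcl9, a Cxcr3 ligand, was at 104 ± 21.9 RPKM in cDC1, 6.95 ± 0.566 in cDC2 and 10.9 ± 6.69 in mcDC (limma adjusted p = 8.2e-05 between cDC1 and cDC2, and 0.00032 between mcDC and cDC1). Xcl1, the Xcr1 ligand, was at 54.2 ± 38.1 RPKM in mcDC, 9.58 ± 5.17 in cDC1 and 2.53 ± 1.19 in cDC2 (mcDC against cDC1 0.014, mcDC against cDC2 0.0048), in the subset where the sum of NK cell genes was also highest. Ccl19, a Ccr7 ligand, reached 4.80 ± 0.801 RPKM in cDC1, with 0.331 ± 0.0514 in cDC2 and 0.321 ± 0.299 in mcDC (0.00016 and 0.00028). Cx3cl1, the Cx3cr1 ligand, had 2.35 ± 0.606 RPKM in cDC1 against 0.213 ± 0.163 in cDC2 (0.014), where the receptor had the opposite order. Ccl2, a Ccr2 ligand, was lower in mcDC than in cDC1, at 0.805 ± 0.644 against 2.94 ± 0.988 RPKM (0.025). Ccl5, a ligand of Ccr3, had the highest level, at 423 ± 32.3, 330 ± 154 and 542 ± 163 RPKM in cDC1, cDC2 and mcDC, and did not pass in any comparison, nor did the Cxcr3 ligand Cxcl10, at 9.85 ± 3.76, 6.92 ± 2.42 and 5.01 ± 0.621 RPKM.

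Genes of signalling below the receptors were mostly lower in cDC1 where they differed. Of 36 listed genes 34 were tested. Between cDC1 and cDC2, 2 were higher and 13 lower in cDC1, against 8.85% and 10.7% of all genes tested. Between mcDC and cDC1, 7 were higher and 2 lower in mcDC, against 9.53% and 5.88%. Only 1 was called between mcDC and cDC2, lower in mcDC, a share not above the 3.66% of all genes called. The median log2 fold changes were -0.42, 0.27 and -0.07, against -0.02, 0.09 and 0.06 over all genes. Rac2, a GTPase that drives actin at the leading edge, was at 59.4 ± 6.42 RPKM in cDC1, 148 ± 10.96 in cDC2 and 126 ± 13.8 in mcDC (cDC1 against cDC2 -1.31, limma adjusted p = 9.2e-05). Rasgrp2, which switches on Rap1 for integrin adhesion, was at 10.5 ± 2.20, 33.9 ± 3.39 and 32.6 ± 6.07 RPKM (-1.62, 0.00023). Pik3r6, a regulatory subunit of the G protein coupled PI3 kinase, was at 2.999 ± 0.308, 8.84 ± 1.11 and 12.1 ± 1.92 RPKM (-1.30, 0.00046).

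The RGS genes, whose products damp receptor signals, did not move as a block. Rgs3 was at 15.7 ± 0.442 RPKM in cDC1, 33.1 ± 3.59 in cDC2 and 32.8 ± 4.998 in mcDC, and rose in mcDC over cDC1 (1.003, limma adjusted p = 0.0011). Rgs2 was lower in cDC1 than in cDC2, at 227 ± 62.5 against 480 ± 84.4 RPKM (-1.10, 0.0062). Rgs1, with 205 ± 50.7 RPKM in cDC1, 373 ± 184 in cDC2 and 410 ± 219 in mcDC, did not pass. Rap1b, a GTPase of integrin activation, was the 1 signalling gene called between mcDC and cDC2, at 165 ± 21.2 against 247 ± 15.0 RPKM (-0.58, 0.029). Gnai2, the inhibitory G protein subunit that most leukocyte receptors of this kind use, had means of 338 ± 8.396, 432 ± 37.9 and 403 ± 21.3 RPKM, with no call in any comparison.

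The genes most like each receptor were taken as those with the smallest root mean square difference in log2(RPKM + 1) over the 9 libraries, after each gene's own mean was taken off, among 11219 named genes. This is a description, and the libraries of a subset share whatever sets that subset apart. The difference is not scaled to how much a receptor itself varied, from 2.29 log2 units for Xcr1 to 0.51 for Cxcr4 on the same measure. Differences given for different receptors therefore cannot be ranked against each other. Xcr1 was nearest to Ttc39a (0.43 log2 units) and Cadm1 (0.48), both highest in cDC1. Ccr7 was nearest to Fscn1 (0.22), the actin bundler fascin of mature dendritic cells, and Cacnb3 (0.29), a calcium channel subunit. Fscn1 was at 183 ± 21.7, 48.0 ± 23.4 and 94.0 ± 31.1 RPKM in cDC1, cDC2 and mcDC. Both are among the 15 maturation genes above.

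Ccr9 was nearest to Glce (0.14), an epimerase of heparan sulfate synthesis, and Cd1d1 (0.18), which presents lipid antigens, at 78.9 ± 8.15, 16.7 ± 3.63 and 24.9 ± 0.806 RPKM. Cxcr3 was nearest to Tubb2a (0.29), a tubulin, and Cd24a (0.32). Among the genes nearest to Cx3cr1 was Lrp1 (0.27), an endocytic receptor. Ccr6 was nearest to Sucnr1 (0.25), the succinate receptor, at 0.272 ± 0.270, 12.1 ± 3.32 and 12.5 ± 7.46 RPKM, and Cdhr3 (0.36), a cadherin. Ccr2 was nearest to Fam129b (0.28) and Bcl3 (0.32), a nuclear cofactor of NF-kappaB, and Cxcr4 to Trappc5 (0.12) and B4galt5 (0.12). Ccr3 was nearest to Ncr1 (0.30), at 4.84 ± 0.774, 3.57 ± 1.09 and 25.3 ± 5.97 RPKM, and Slc40a1 (0.31), the iron exporter ferroportin, at 9.73 ± 2.44, 6.98 ± 1.31 and 51.8 ± 10.6.

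Library titles run in consecutive numbers that place replicate 1 of the 3 subsets together, then replicate 2, then replicate 3. The labels do not say what such a run shares. Replicate 1 was the lowest library of all 3 subsets for Xcr1 and Cxcr3, and replicate 3 the lowest of all 3 for Ccr6, so the same run was lowest throughout for 3 of 9 receptors, against 31.4% of all genes tested. Replicate 3 was the highest of all 3 subsets for Cxcr3, the 1 receptor of this kind, against 28.0% of genes. The first of these counts was near the background and the second below it, among only 9 members.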

How the data were processed

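RNA from 9 libraries of sorted spleen dendritic cells had been deposited as RPKM for 14862 genes; besides the joint table, 8 per-library files held identical values, with mcDC replicate 3 in the joint table alone. The deposited files name no unit. RPKM was read from the steps between values, which gave whole reads for 100% of nonzero values (within 0.0001), and from these the library totals; values were not rescaled for composition by the authors as far as the files show. Per the submitters' processing notes the build was mm8; the aligner, counting tool, use of strand and annotation are not given in the sources used here. There were 0 columns of other samples.

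Differences were tested with limma 3.58.1 (R 4.3.3) on log2(RPKM + 1), all groups fitted jointly, the prior variance following a trend with level, for 11971 genes above 1 RPKM in at least 2 libraries, with Benjamini-Hochberg adjustment over all of them within each comparison (threshold 0.05) and 6 residual degrees of freedom. Log2 fold changes on this scale understate those of low genes. The test was checked on simulated reads, drawn independently for each library with the same dispersion for every gene. That simulation held no effect of a title run, so it does not show how the test performs where libraries share one. Replicate libraries differed by more than counting noise (chi-square per degree of freedom 9.00 to 57.2), so none were merged. RPKM is per length and its error here is the SD over 3 libraries.

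Members and lists were chosen with earlier results of these data known; all members are named, with up to 4 called genes of largest change a comparison and 2 of highest level for each other pathway list, and the 2 nearest genes by likeness. Some genes that this rule names are not reported here. Marker genes are named as examples after their values were seen, and the motifs and the printed stretches were chosen then too. Of 209 listed names 188 were found. The common dendritic cell, neutrophil and erythroid lists are given in the closing section. Python 3.11.15, numpy 2.4.6, pandas 2.3.3 and matplotlib 3.10.9 were used.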

Additional observations from a re-analysis of the deposited data

How the results depend on the processing

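Of 27 tests of a receptor in a comparison, 19 were called, and 14 of these kept their call under all 18 alternatives. No called test changed direction. The direction reversed in 2 tests that were not called, both between mcDC and cDC2: for Ccr6 (0.09) the log2 fold change was -0.018 with median-of-ratios scaling and -0.27 to 0.60 with a library left out, and for Ccr2 (0.12) it was -0.30 to 0.40 with a library left out. With a library left out, members called were 4 to 8 between mcDC and cDC1, and all genes called were 951 to 2601 there, 158 to 896 between mcDC and cDC2 and 1547 to 3467 between cDC1 and cDC2. With the compared groups fitted alone the counts of all genes were 1096, 251 and 3731 in that order. Median-of-ratios scaling moved the median over all genes of mcDC against cDC1 from 0.094 to -0.026 (log2), and the share of calls higher in mcDC from 61.8% to 46.5% there and from 56.4% to 42.8% against cDC2. Quantile normalization gave 47.7% and 46.2%, and voom on the recovered reads 62.6% and 60.5%. The cause of these moves was not tested.

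Deviations from the group means correlated at 0.076 to 0.58 over 9566 genes between libraries of the same title run in different subsets, with 9 of 9 libraries closest to their own run. Between libraries of different runs in different subsets they correlated at -0.58 to 0.027, all below the pairs of the same run. Deviations from a mean cancel within each subset, so positive values within runs push those between runs down. The values between runs are therefore not a separate observation. The labels name no pairing, so the main fit did not take the runs as pairs and does not remove what a run shares. With the title run as a replicate block all genes called were 2474 between mcDC and cDC1, 773 between mcDC and cDC2 and 2942 between cDC1 and cDC2, and members called were 8, 4 and 8, the added one being Ccr7 between mcDC and cDC1 (adjusted p = 0.014). Depth limits the lowest values most: Ccr6 in cDC1 rests on 5 to 16 reads a library.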

Other observations

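Genes common to dendritic cells were high in all 3 subsets: Cd74, the invariant chain of MHC class II, was at 12186, 11976 and 9786 RPKM in cDC1, cDC2 and mcDC, and Flt3, the receptor for the dendritic cell growth factor, at 265, 146 and 174. Flt3 was higher in cDC1 than in cDC2 and lower in mcDC than in cDC1 (limma adjusted p = 0.0021 and 0.018), and Itgax, the CD11c integrin, was at 270.3, 462 and 325 RPKM and lower in cDC1 than in cDC2 (0.018).

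Neutrophil and erythroid genes, which stand in no comparison above, varied between libraries of the same subset. The summed RPKM of 9 neutrophil genes was 147, 933 and 1592 in cDC2 replicates 1, 2 and 3, 11.5 to 45.1 in cDC1 and 11.4 to 46.2 in mcDC. This sum rose from replicate 1 to replicate 3 in every subset, whereas Ccr2 did so in cDC2 alone. For cDC1 the Ccr2 level peaked in replicate 1 (55.2 RPKM), where the neutrophil sum was lowest. For mcDC both were lowest in replicate 1, but Ccr2 peaked in replicate 2 (150 RPKM). The part of neutrophil genes in the Ccr2 level was not tested. With limma 7 of the 9 were lower in cDC1 than in cDC2, against 10.7% of all genes tested. In mcDC 6 were lower than in cDC2, against 1.6%, and 1 was higher than in cDC1, against 9.53%. Voom called 3, 1 and 1 in these comparisons. That of 6 erythroid genes was 2.47 to 94.8 in cDC1, 0.743 to 12.1 in cDC2 and 2.19 to 77.6 in mcDC.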
